A study of Mus musculus with 8 samples.

Results

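Hox genes were followed in the colonic mucosa of mice with and without a transgene that accompanies low Dnmt1 signal. The genes were chosen by symbol alone, as every row of the array whose annotated gene is Hoxa, Hoxb, Hoxc or Hoxd followed by a number. This gave 38 rows for 38 genes, of 18097 rows in all. The family was taken up with genotype differences in it already known, those of Hoxd4 and Hoxd8 among them, so the genotype values below are a description and support nothing by themselves.

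The data came from 4 mice, 2 of each genotype, with 2 arrays for each mouse. The control mice, here control 1 and control 2, carried Dnmt1LO/LO alone. The transgenic mice, here transgenic 1 and transgenic 2, carried Dnmt1LO/LO together with TgVillacIGY, so the Dnmt1LO/LO genotype was shared by both groups. All 4 mice were males of 157 days on a mixed 129Sv/B6/D2 background. The labels do not spell out either allele name, nor the promoter or the cells in which the transgene is active. Total RNA of the mucosa was read on the MouseRef-8 v2.0 BeadChip of Illumina, on which beads carry a probe for each row and the brightness of a row is its signal.

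Hox genes encode homeodomain transcription factors that give cells along the body axis their positional identity. In mammals they lie in 4 clusters, named a to d, on separate chromosomes (in the mouse, 6, 11, 15 and 2), and genes of the same group number in different clusters descend from a common ancestral gene. Low group numbers are active towards the head and high numbers towards the tail, and in the gut they are known to be used in both the epithelium and the underlying mesenchyme, where they pattern regions along its length. Their clusters are textbook targets of Polycomb repression and of retinoic acid.

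The stretch before the start site is printed here for the 3 neighbouring Hoxd genes that had the lowest transgenic values relative to control, and for Hoxa7, which was detected on every array and had nearly equal genotype means, since Dnmt1 copies methylation at CpG dinucleotides. Each is the 250 bases upstream of the start in RefSeq on GRCm38.p6, 5′ to 3′ on the gene's strand, with CpG dinucleotides in capitals. The regions are chr2:74704365-74704614 on the plus strand for Hoxd8, chr2:74711743-74711992 on the plus strand for Hoxd3, chr2:74721728-74721977 on the plus strand for Hoxd4 and chr6:52218574-52218823 on the minus strand for Hoxa7.
Hoxd8: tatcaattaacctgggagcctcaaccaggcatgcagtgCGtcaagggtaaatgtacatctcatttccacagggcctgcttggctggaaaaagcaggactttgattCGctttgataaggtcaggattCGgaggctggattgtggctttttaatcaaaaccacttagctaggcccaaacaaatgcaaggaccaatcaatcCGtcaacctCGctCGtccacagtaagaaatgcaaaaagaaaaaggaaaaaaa
Hoxd3: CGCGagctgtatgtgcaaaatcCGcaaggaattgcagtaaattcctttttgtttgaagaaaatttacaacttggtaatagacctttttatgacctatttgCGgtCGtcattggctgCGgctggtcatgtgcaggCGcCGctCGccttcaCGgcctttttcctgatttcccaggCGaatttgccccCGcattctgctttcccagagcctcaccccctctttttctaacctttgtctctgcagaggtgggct
Hoxd4: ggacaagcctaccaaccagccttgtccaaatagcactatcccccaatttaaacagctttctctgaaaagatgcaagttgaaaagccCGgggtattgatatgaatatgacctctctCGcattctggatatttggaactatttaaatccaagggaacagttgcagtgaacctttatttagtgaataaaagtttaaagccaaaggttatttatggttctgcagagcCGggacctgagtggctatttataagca
Hoxa7: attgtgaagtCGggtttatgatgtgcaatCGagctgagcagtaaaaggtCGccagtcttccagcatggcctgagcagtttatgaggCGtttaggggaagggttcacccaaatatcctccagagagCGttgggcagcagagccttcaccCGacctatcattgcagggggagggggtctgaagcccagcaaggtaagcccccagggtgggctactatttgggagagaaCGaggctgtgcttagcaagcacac

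The upstream stretch held 3 CpG for Hoxd4, 6 for Hoxd8, 7 for Hoxa7 and 12 for Hoxd3. The median was 12 over the 22 Hox genes with an entry (range 2 to 35) and 6 over all 27025 genes with one. The ratio of observed to predicted CpG had a median of 0.603 for Hox genes and 0.378 for all genes. Among the 8 tested Hox genes with an entry the richest was Hoxa13, with 35 CpG, followed by Hoxa5 with 28. The letters TTTATG, the core of a site bound by Cdx proteins, were searched on both strands. They occurred in 5 of 22 Hox stretches (22.7%) and in 11.1% of all genes' stretches. Hoxa7 held 2 copies, Hoxd3 and Hoxd4 held 1 each, and Hoxd8 held none. DNA methylation itself was not measured on these arrays.

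The Dnmt1 row was lower in the transgenic mice. Dnmt1 is the maintenance DNA methyltransferase. Its raw signals were 932.1 and 647.2 on the arrays of control 1, 749.9 and 579.6 on those of control 2, 179.8 and 248.4 on those of transgenic 1, and 194.1 and 211.5 on those of transgenic 2. Every transgenic array lay below every control array. On the normalised log2 scale the mean was 9.29 ± 0.16 (SD, n = 2 mice) in control and 7.09 ± 0.49 (SD, n = 2) in transgenic mice, a difference of -2.20 ± 0.28 (SE) or 4.60-fold, with a limma adjusted p of 0.129. The adjusted p misses the threshold of 0.05. It was 0.541 without control 1, 0.729 without control 2, 0.0166 without transgenic 1 and 0.0111 without transgenic 2. With the background inferred from all rows the difference was -0.64 (limma adjusted p 0.618). That background had an SD of 389 to 682 per array, beside 13.7 to 24.2 in the main setting.

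A subset of Hox genes was detected on all 4 control arrays. Detection here means a detection p under 0.01, the share of negative-control probes that are brighter. The count was 12 of 38 genes, beside 34.8% of the 16610 rows with a gene symbol. By cluster they were 4 of 10 Hoxa genes, 5 of 10 Hoxb genes, 0 of 9 Hoxc genes and 3 of 9 Hoxd genes. The detected Hoxa genes were Hoxa2, Hoxa5, Hoxa7 and Hoxa13. The detected Hoxb genes were Hoxb4, Hoxb5, Hoxb6, Hoxb7 and Hoxb9, of which 4 are consecutive in group number. The detected Hoxd genes were Hoxd4, Hoxd8 and Hoxd10.

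Detection was spread over the group numbers rather than confined to the tail-side end. Both group 7 genes (Hoxa7 and Hoxb7) were detected on all control arrays, as were 2 of 3 group 5 genes and 2 of 4 group 4 genes. Groups 2, 6, 8, 9, 10 and 13 had 1 detected gene each. Groups 1, 3, 11 and 12 had none on all 4 control arrays, among 2, 3, 3 and 2 rows. Of the 4 group 13 genes, which mark the hindgut and tail end of the embryo, Hoxa13 was the only one detected. Its detection values were of a kind that followed the signal less closely, as described below.

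**Figure D1:**
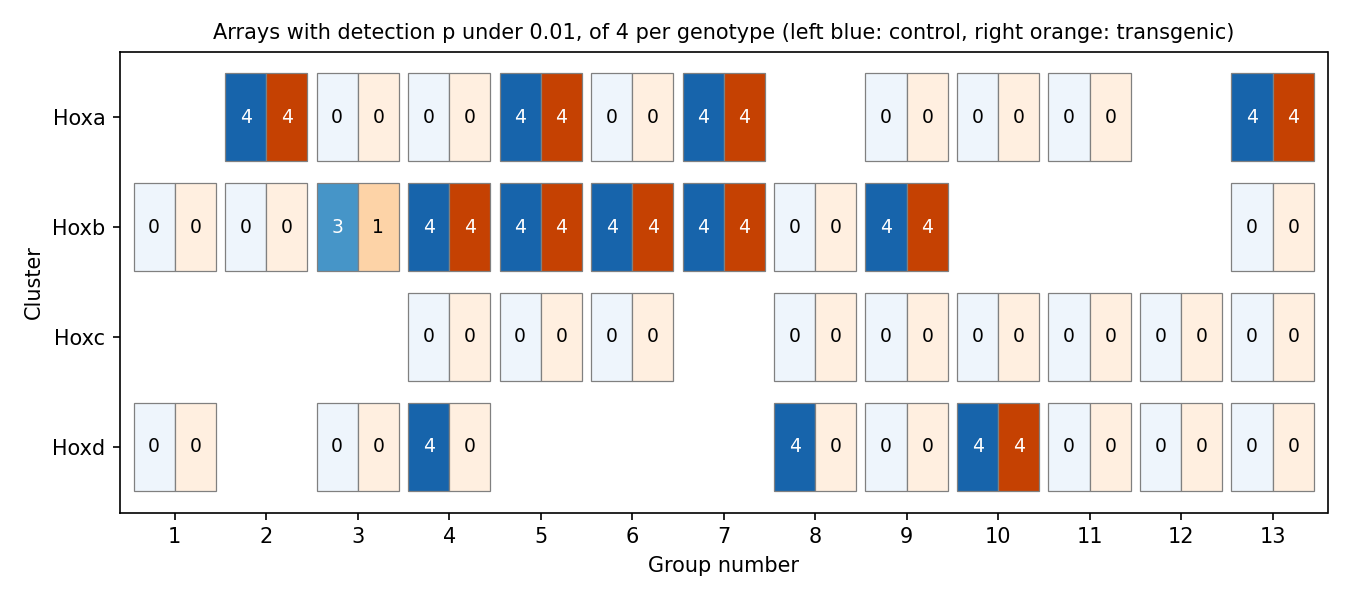
Detection of the 38 Hox genes by cluster (vertical axis) and group number (horizontal axis). Each gene has a blue cell on the left for the 4 control arrays and an orange cell on the right for the 4 transgenic arrays, with the number of arrays at a detection p under 0.01, and blank places hold no row. The Hoxc line is at 0 throughout, and Hoxd4 and Hoxd8 have 4 control arrays and 0 transgenic arrays.

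In the transgenic mice 10 Hox genes were detected on all 4 arrays, and all 10 were also detected on all control arrays. The 2 genes lost from this count were Hoxd4 and Hoxd8, each detected on 4 of 4 control and 0 of 4 transgenic arrays. That pattern was found in 25 of the 6982 tested rows (0.358%). Hoxb3 was detected on 3 control arrays and 1 transgenic array. The remaining 25 Hox genes were detected on no array: Hoxa3, Hoxa4, Hoxa6, Hoxa9, Hoxa10 and Hoxa11, Hoxb1, Hoxb2, Hoxb8 and Hoxb13, all 9 Hoxc genes (Hoxc4, Hoxc5, Hoxc6, Hoxc8, Hoxc9, Hoxc10, Hoxc11, Hoxc12 and Hoxc13), and Hoxd1, Hoxd3, Hoxd9, Hoxd11, Hoxd12 and Hoxd13. This places them short of the detection threshold used here and does not show that they are silent. A pair of them came close to the limit: Hoxa4 had a lowest detection p of 0.01003 and Hoxa9 of 0.0121. The detection values of 9 Hox rows (Hoxa2, Hoxa3, Hoxa9, Hoxa10, Hoxa13, Hoxb1, Hoxb3, Hoxc10 and Hoxc11) were not whole steps of 1 negative control. How those rows were combined is not given in the sources used here. Over all rows, such values followed the signal less closely. At signals of 200 to 250, 100% of whole-step values and 56.3% of the others were detected. At 100 to 150 these shares were 3.79% and 19.3%. Hoxa9 was undetected at control signals of 143.8 to 165.4, while Hoxa13 was detected at 136.8 to 170.2.

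Normalised levels of the 13 Hox rows that could be tested are shown by array and mouse in the plot of levels. A row was tested when it was detected on at least 4 of the 8 arrays. Levels of different rows come from different probes and were not set against each other.

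**Figure D2:**
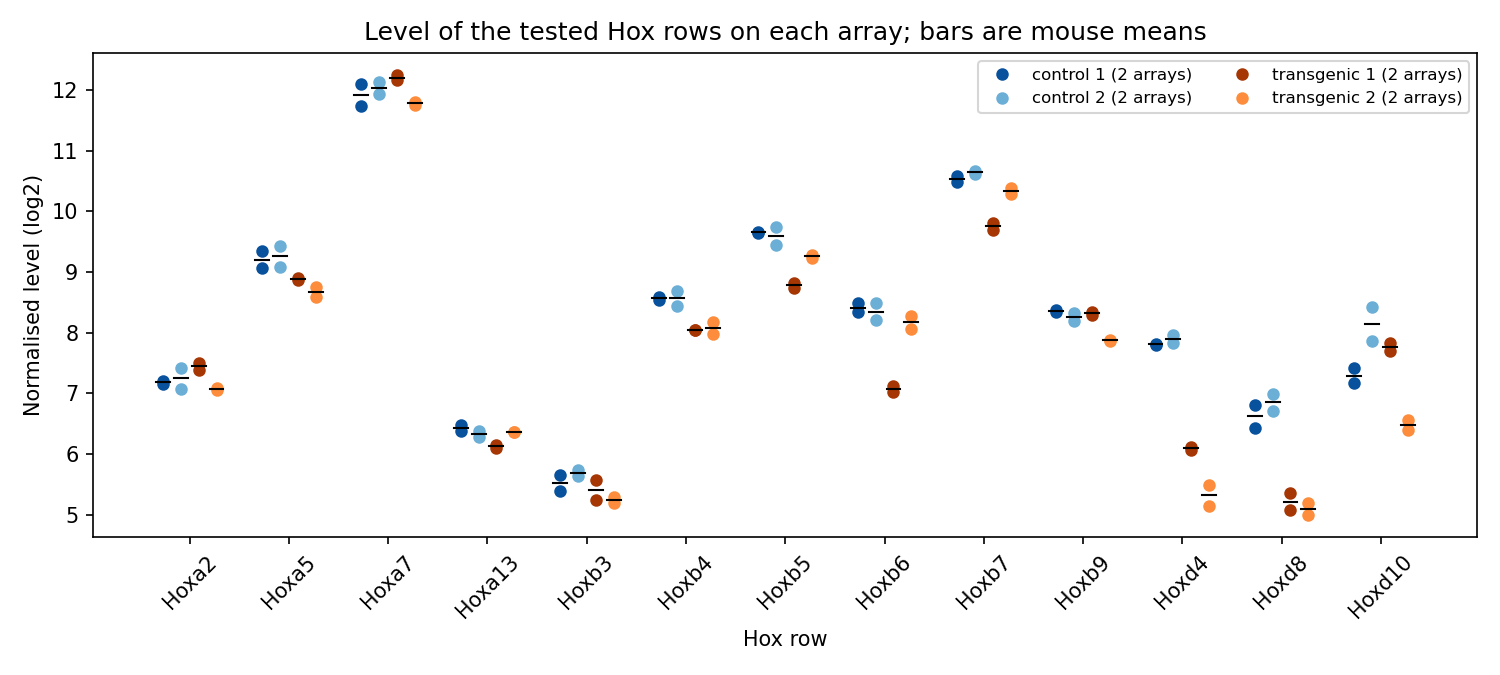
Normalised log2 level (vertical axis) of the 13 tested Hox rows (horizontal axis) on each of the 8 arrays. Points are arrays, coloured by mouse with control in blue and transgenic in orange, short bars are mouse means, and heights are comparable within a row only. Hoxd4 and Hoxd8 show gaps of -2.15 and -1.58 between the genotypes, while the mouse means overlap for Hoxa2, Hoxa7, Hoxa13, Hoxb9 and Hoxd10.

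None of the 13 tested Hox rows passed limma at an adjusted p of 0.05, beside 9 of the 6982 tested rows (0.129%) in either direction and 0% in the lower direction. At an unadjusted p under 0.05 there were 5 Hox rows (Hoxa5, Hoxb4, Hoxb5, Hoxd4 and Hoxd8), beside 8.39% of all tested rows. The median difference, transgenic minus control, was -0.50 over the 13 Hox rows and -0.01 over all tested rows on the log2 scale. Of the 13 differences 11 were negative, beside 51.5% of all tested rows, and the 2 positive ones were Hoxa2 and Hoxa7. Both transgenic mice lay below both control mice for 8 of the 13, beside 20.9% of tested rows. They lay above both for 0 of the 13, beside 21.7%. Hoxd4 and Hoxd8 passed the detection filter through their control arrays alone, so they had to differ in this direction.

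Without any detection filter the same description covers all 38 rows. The median difference was then -0.08, beside -0.005 over all 18097 rows, and 23 of 38 differences were negative (60.5%, beside 51.7%). Both transgenic mice lay below both control mice for 13 of 38 rows (34.2%, beside 20%), and above for 9 (23.7%, beside 19.3%). All 4 raw transgenic signals lay below all 4 raw control signals for 6 rows: Hoxb2, Hoxb3, Hoxb4, Hoxd3, Hoxd4 and Hoxd8. This is 15.8% of the Hox rows, beside 3.31% of all rows. Raw signals are not adjusted for the brightness of an array. On the normalised scale the arrays of Hoxb2 and Hoxb3 overlapped between the genotypes. Those of Hoxa5, Hoxb5, Hoxb7 and Hoxc5 separated downward there. The share over all rows was not counted on that scale, so these names are a description only.

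In the Hoxd cluster, Hoxd4 and Hoxd8 had the lowest fitted differences of the tested Hox rows. Both are against undetected transgenic values, and the bound of Hoxd8 is under the folds of Hoxa5, Hoxb4 to Hoxb7 and Hoxd10. Hoxd4, which is known for patterning the neck vertebrae and the hindbrain, had raw signals of 304.3, 290.4, 330.8 and 293.4 on the control arrays. Its signals were 121.5 and 128.8 on the arrays of transgenic 1, and 101.9 and 127.2 on those of transgenic 2. The lowest control signal was above the highest transgenic signal. The mean log2 level was 7.86 ± 0.06 (SD, n = 2) in control and 5.71 ± 0.55 (SD, n = 2) in transgenic mice. The fitted difference was -2.15 ± 0.30 (SE), with a limma adjusted p of 0.150. Because the row was not detected in any transgenic array, the fold is a bound of at least 2.96-fold lower. The limma adjusted p was 0.541 without control 1, 0.879 without control 2, 0.0107 without transgenic 1 and 0.0092 without transgenic 2. With the background inferred from all rows, whose SD exceeded each of these signals, the difference was -0.21.

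Hoxd8, a mid-cluster gene of trunk patterning, also had no overlap between the genotypes. Its control signals were 157.6, 182.3, 193.2 and 181.1. Its transgenic signals were 86.5 and 98 in transgenic 1, and 92.8 and 110.7 in transgenic 2. The mean log2 level was 6.74 ± 0.16 (SD, n = 2) in control and 5.16 ± 0.09 (SD, n = 2) in transgenic mice. The difference was -1.58 ± 0.18 (SE), a bound of at least 1.36-fold lower, and the limma adjusted p was 0.101. It was close in both mice, at -1.52 for transgenic 1 and -1.65 for transgenic 2 against the control mean. The limma adjusted p was 0.541 without control 1, 0.969 without control 2, 0.0487 without transgenic 1 and 0.0162 without transgenic 2. With the background inferred from all rows, whose SD exceeded each of these signals, the difference was -0.0922.

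The RefSeq start used for Hoxd3 lies between those of Hoxd8 and Hoxd4, and the RefSeq span of Hoxd3 includes Hoxd4. The stretch printed for Hoxd3 is the one before that start. Hoxd3 acts in the development of the atlas, the uppermost neck vertebra. The row was not detected on any array, with a lowest detection p of 0.0263, and so was not tested. Its signals were nevertheless 129.2, 109, 137.2 and 133.3 on the control arrays and 85, 82.1, 93.4 and 96.3 on the transgenic arrays. Its unfiltered difference was -0.80 ± 0.15 (SE), with -0.78 and -0.81 in the 2 transgenic mice. The 3 adjacent genes therefore had lower transgenic signals on every array. The upstream stretches printed above for these genes carried 12, 6 and 3 CpG for Hoxd3, Hoxd8 and Hoxd4.

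Hoxd10, known for patterning the hindlimb and lumbar motor neurons, was detected on all 8 arrays. Its control signals were 218.6, 239.6, 465.8 and 278.6 and its transgenic signals 230.1, 264.2, 171.7 and 189. The mice of the genotypes overlapped, and 1 array of control 2 was much brighter than the other. The difference was -0.60 ± 0.53 (SE) with a limma adjusted p of 0.772, made of 0.05 in transgenic 1 and -1.24 in transgenic 2. Hoxd1 and Hoxd9, undetected on every array, had unfiltered differences of 0.30 ± 0.09 and 0.20 ± 0.07 (SE).

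All 6 tested Hoxb rows had negative differences, with a median of -0.52. Hoxb7, an axial skeleton gene, had control signals of 1634.2, 1599.3, 1998.9 and 1517.6. Its transgenic signals were 680.9 and 809.3 in transgenic 1, and 1498.1 and 1631.6 in transgenic 2. Transgenic 1 was set far apart, and the raw signals of transgenic 2 overlapped those of the controls, while its normalised mean lay below both control means. The difference of the mouse means was -0.55 ± 0.25 (SE), or 1.46-fold, with a limma adjusted p of 0.638.

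Hoxb5, which acts in the migration of enteric neuron precursors, repeated this arrangement. Its control signals were 942.2, 872.6, 1057.1 and 704.2, and its transgenic signals 408.9 and 429.7 in transgenic 1 and 762.8 and 806.4 in transgenic 2. The difference was -0.61 ± 0.22 (SE; 1.52-fold; limma adjusted p 0.566), with -0.85 and -0.37 in the 2 mice. Hoxb6 had control signals of 451.7, 386.3, 404.8 and 390.1, and transgenic signals of 177.5 and 182.2 against 432.8 and 399. Its difference of -0.75 ± 0.39 (SE; limma adjusted p 0.655) was -1.31 in transgenic 1 and -0.20 in transgenic 2. In these 3 genes the larger part of the difference came from 1 mouse. Without transgenic 2, Hoxb5, Hoxb6 and Hoxb7 had limma adjusted p values of 0.0388, 0.0169 and 0.0413. Without transgenic 1 these were 0.394, 0.590 and 0.529, and without control 1 they were 0.999 for each gene, while without control 2 they were 1 for each.

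Hoxb4, known as a regulator of blood stem cells, differed almost equally in both mice. Its control signals were 465.9, 445.6, 471.3 and 438.2, and its transgenic signals 269.9, 294.3, 367.6 and 422.2. Every transgenic array lay below every control array. The mean log2 level was 8.57 in control and 8.06 ± 0.02 (SD, n = 2) in transgenic mice, with differences of -0.52 and -0.49 by mouse. The fitted difference was -0.50 ± 0.16 (SE; 1.42-fold; limma adjusted p 0.514).

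The tested Hoxb rows at the ends of the range had smaller differences. Hoxb3 lay near the detection limit, where the added offset understates differences. Hoxb3 had control signals of 118.5, 111.7, 136.2 and 111.4 and transgenic signals of 103.4, 93.7, 110.3 and 110.7, a difference of -0.28 ± 0.18 (SE; limma adjusted p 0.697). Hoxb9, a gene of rib and mammary patterning, had control signals of 353.8 to 415.1 and transgenic signals of 314.7 to 359, with overlapping mouse means and a difference of -0.22 ± 0.22 (SE; limma adjusted p 0.798). Hoxb2, undetected, had an unfiltered difference of -0.43 ± 0.21 (SE). Over all 10 Hoxb rows, 9 differences were negative and the median was -0.36.

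The Hoxa cluster had no common direction among its 4 tested rows, whose median was -0.06. Hoxa5, needed for lung and gut development, was the exception in which both transgenic mice lay below both controls. Its control signals were 638, 717.4, 851.9 and 562.2 and its transgenic signals 418.8, 470.1, 571.5 and 533.5. The mouse means and the normalised levels of single arrays separated, although the raw signals of single arrays overlapped. The difference was -0.46 ± 0.17 (SE; 1.38-fold; limma adjusted p 0.589), with -0.35 and -0.57 by mouse.

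Hoxa7 had control signals of 3722.5, 4482.9, 4757 and 4250.1 and transgenic signals of 3564.3, 3736, 3976.1 and 4167.4. After normalisation its means were 11.97 ± 0.08 and 11.99 ± 0.30 (SD, n = 2 each), a difference of 0.02 ± 0.21 (SE; limma adjusted p 0.985). Hoxa2, a selector of the second branchial arch, had signals of 215.4 to 226.3 in control and 208.9 to 237.2 in transgenic arrays. Its difference was 0.04 ± 0.20 (SE; limma adjusted p 0.963). Hoxa13, which patterns the digits and the hindgut, had signals of 136.8 to 170.2 in control and 124.3 to 176 in transgenic arrays, and a difference of -0.13 ± 0.18 (SE; limma adjusted p 0.848). These intervals are wide, and a missed threshold does not show that the genotypes were equal.

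No Hoxc row was detected, and the median unfiltered difference of the 9 rows was 0.02. Hoxc6, a thoracic patterning gene, was the single Hox row with all 4 raw transgenic signals above all 4 raw control signals, at 96.3 to 122.1 against 74.8 to 90.6. This pattern was found in 3.23% of all rows. Its unfiltered difference was 0.51 ± 0.08 (SE). Hoxa4, just short of detection, had signals of 108.2 to 132.1 in control, 126 and 127.4 in transgenic 1, and 158.6 and 163 in transgenic 2. Its unfiltered difference was 0.58 ± 0.13 (SE). After normalisation all 4 transgenic arrays of Hoxa4, Hoxc6 and Hoxc8 lay above all 4 control arrays. The share of all rows with that pattern was not counted on the normalised scale, so nothing is drawn from it.

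**Figure D3:**
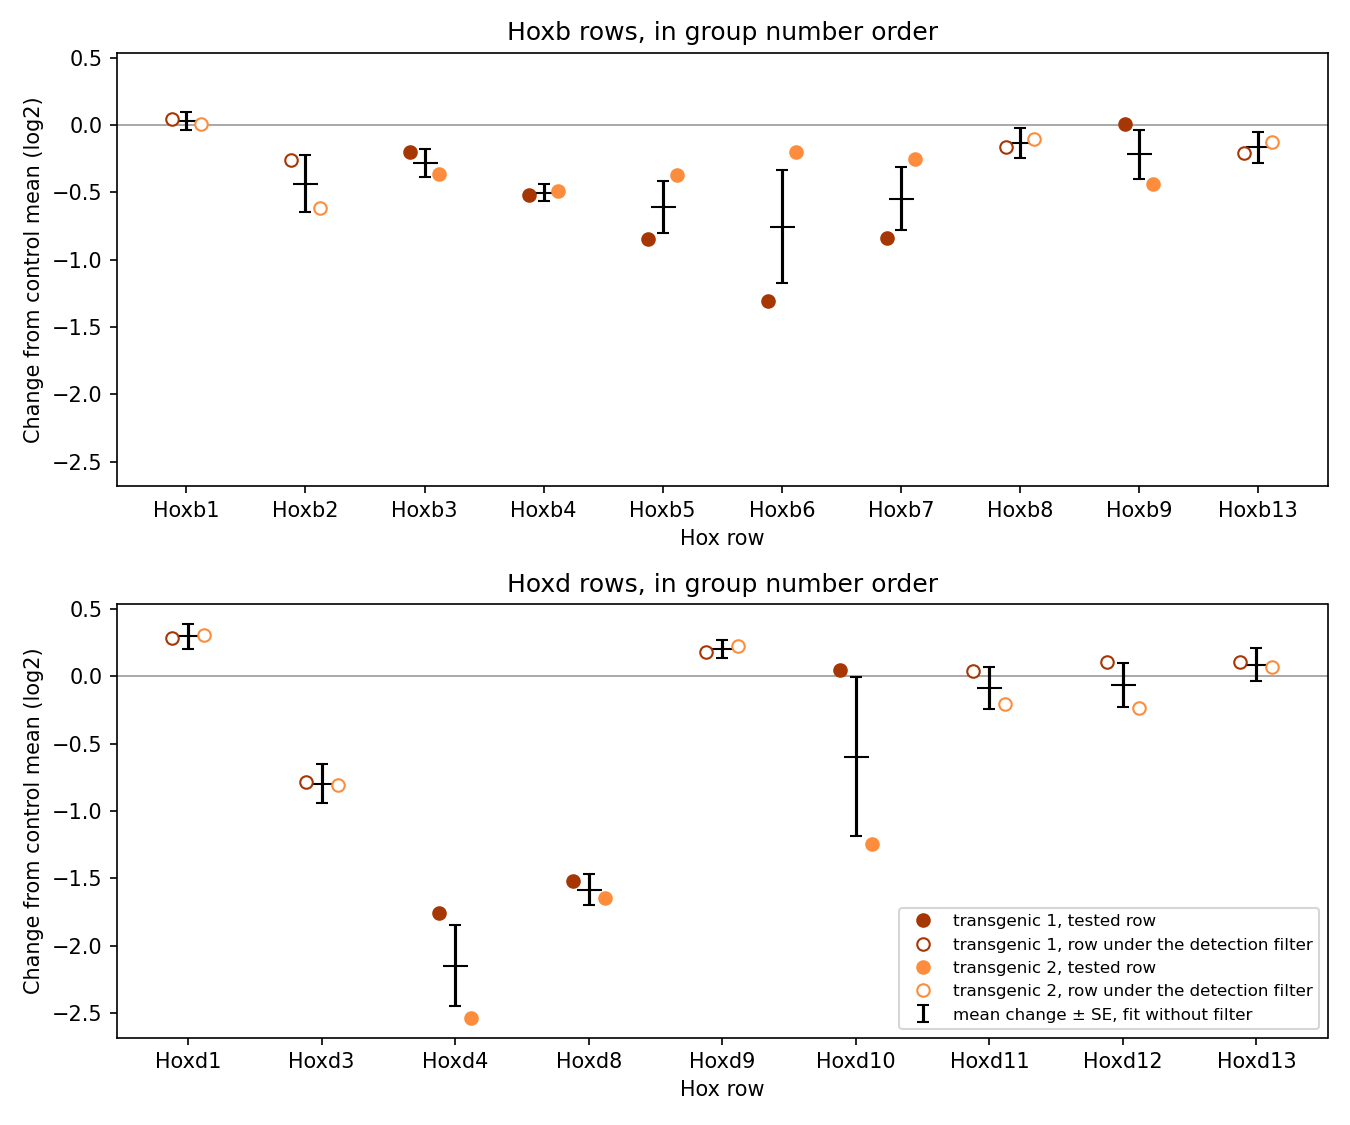
Difference of each transgenic mouse from the control mean (vertical axis, log2) for all 10 Hoxb rows (upper panel) and all 9 Hoxd rows (lower panel), in order of group number. Circles are single transgenic mice, filled for tested rows and open for rows under the detection filter, and black marks are the mean difference ± SE of the fit without that filter, whose SE can differ from the filtered fit in the text. Hoxd3, Hoxd4 and Hoxd8 are low in both mice, and Hoxb5, Hoxb6 and Hoxb7 are lower in transgenic 1 than in transgenic 2.

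Spread between mice was wider in the transgenic pair than in the control pair. Its median between mice was 0.299 in transgenic and 0.072 in control mice over the 13 Hox rows, beside 0.215 and 0.103 over all tested rows. The median difference over Hox rows was -0.35 for transgenic 1 and -0.37 for transgenic 2, but single rows differed between these mice. By cluster, in the same order, the medians were -0.01 and -0.17 for Hoxa, -0.68 and -0.37 for Hoxb, and -1.52 and -1.65 for Hoxd. Mean raw signal was 698 and 753 on the arrays of transgenic 1 and 866 to 1080 on the other arrays. Arrays of the same mouse had a median SD of 0.0826 for the Hox rows and 0.0849 for all tested rows.

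Genes that border the clusters were read the same way, from the nearest 2 annotated non-Hox genes with a row on each side. Beside Hoxb, Ttll6, a tubulin polyglutamylase gene, had a difference of -0.93 ± 0.17 (SE; limma adjusted p 0.227), with both transgenic mice below both controls. The other Hoxb neighbours were Ube2z at -0.08 and Snx11 at -0.32, with Skap1 undetected. Beside Hoxa, Snx10, Skap2, Evx1 and Hibadh had differences between -0.10 and 0.26. Beside Hoxc, Atp5g2 was at 0.005 and Smug1 at 0.20, with Calcoco1 and Cbx5 undetected. All 4 Hoxd neighbours (Lnpk, Evx2, Mtx2 and Hnrnpa3) were undetected, so no detected neighbour could be set beside Hoxd4 and Hoxd8. Their unfiltered differences were 0.04 for Lnpk, 0.03 for Evx2, -0.11 for Mtx2 and -0.01 for Hnrnpa3.

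Genes that act with Hox proteins or on their clusters were counted from lists. Of 7 rows for Hox partner homeodomain proteins, which bind DNA together with Hox proteins, 2 were tested and 0 passed: Pbx2 at -0.12 ± 0.17 and Pknox1 at -0.02 ± 0.21 (SE). Meis1, Meis2, Meis3, Pbx3 and Pknox2 were undetected. Of 6 rows for ParaHox genes, a sister family of the Hox genes, 2 were tested and 0 passed. Cdx1 was at -0.01 ± 0.19 and Cdx2 at 0.24 ± 0.30 (SE; limma adjusted p 0.837). Pdx1, a pancreas and duodenum factor, was detected on 0 control and 3 transgenic arrays and so was not tested. Its signals were 136.4, 128, 168.5 and 118.7 in control, 154.7 and 136.4 in transgenic 1, and 327 and 326.6 in transgenic 2. Its differences from the control mean were 0.52 and 1.73, and it was at least 1.62-fold higher in transgenic mice. Cdx4, Gsx1 and Gsx2 were undetected. At an unadjusted p under 0.05 both lists had 0 rows.

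Chromatin regulators of Hox clusters also gave no row that passed. Of 9 rows for trithorax-type activators, which keep Hox genes on, 7 were tested, with 5 positive and 2 negative differences and a median of 0.22. The largest were Ash2l at 0.85 ± 0.18 (SE; limma adjusted p 0.284) and Wdr5 at 0.45 ± 0.19. Of 17 Polycomb rows, which keep Hox genes off, 7 were tested, with 4 positive and 3 negative differences and a median of 0.03. The largest were Cbx7 at -0.39 ± 0.20 (SE; limma adjusted p 0.644) and Suz12 at 0.30 ± 0.19. Of 15 retinoic acid pathway rows, which include the enzymes and receptors of a known Hox inducer, 3 were tested and 12 were undetected. Aldh1a1, a retinaldehyde dehydrogenase, was at -1.10 ± 1.07 (SE), split into -2.74 in transgenic 1 and 0.53 in transgenic 2. Rxra, a retinoid receptor, was at -0.30 ± 0.43 (SE). At an unadjusted p under 0.05 there was 1 row among the trithorax-type activators and 0 in each of the other 2 lists.

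In a bulk sample fewer cells of a type and less RNA per cell cannot be told apart, so marker lists are given beside the Hox values. All 8 epithelial rows were tested and 0 passed limma (0 also at an unadjusted p under 0.05), with a median difference of -0.09. Their summed normalised signal was 144862 and 137100 in the control mice, 106832 in transgenic 1 and 152095 in transgenic 2. The rows did not move together in transgenic 1: Krt20 was at -2.33, Krt19 at -1.21, Krt8 at -0.46 and Vil1 at -0.25, while Lgals4 was at -0.14, Cldn7 at -0.062, Cdh1 at 0.16 and Krt18 at 0.37.

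Fibroblast rows were near the limit of detection, with 9 of 10 undetected and 0 tested. The collagen genes Col1a1, Col1a2 and Col3a1 were among the undetected rows. The summed normalised signal of the 10 rows was 506 and 419 in control and 327 and 305 in transgenic mice. Without Dcn the other 9 rows summed to 302 and 281 in control and 282 and 272 in transgenic mice, so Dcn carried most of the gap. It was the sole fibroblast row detected on any array, with 1 control array, and encodes a matrix proteoglycan of fibroblasts. Its signals were 350.8, 225.5, 230.1 and 190.2 in control and 106.2, 96, 94.3 and 107.1 in transgenic arrays. Dcn thus separated the genotypes in the same direction as Hoxd4 and Hoxd8. Its part in the Hox differences was not tested.

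The other marker lists gave no row that passed limma, and at an unadjusted p under 0.05 they held 1 smooth muscle, 1 endothelial and 3 blood cell rows. Of 9 smooth muscle rows 2 were tested, with Mylk at -0.82 and Smtn at 0.90. Their summed signal was 937 and 889 in control and 904 and 1066 in transgenic mice. All 7 enteric neuron and glia rows were undetected, with a summed signal of 207 to 215 in the 4 mice. Undetected rows lie near the background, so that sum does not compare the content of these cells. Of 8 endothelial rows 1 was tested, Vwf, at 2.96 ± 0.33 (SE; limma adjusted p 0.098), and 7 were undetected. Of 10 blood cell rows 5 were tested, with 4 negative and 1 positive differences and a median of -0.62, at -0.45 and -0.56 by mouse. Cd3e and Cd3d, T cell receptor subunits, were at -1.00 ± 0.33 and -0.99 ± 0.24 (SE), and the summed signal of the list was 1461 and 1471 in control, 2342 in transgenic 1 and 1069 in transgenic 2. Laptm5, a lysosomal membrane protein of blood cells, was the positive row at 0.55 ± 0.63 (SE), with 1.49 in transgenic 1 and -0.39 in transgenic 2. Without Laptm5 the other 9 rows summed to 827 and 861 in control and 593 in each transgenic mouse. Ptprc, which marks all white blood cells, was undetected, with an unfiltered difference of 0.23. The part of these cell types in the Hox differences was not tested.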

How the data were processed

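RNA from colonic mucosa of 4 mice was measured on 8 arrays, and the mouse is the replicate. The deposited intensity values are linear signals, 1 per row and array, without normalisation between arrays. The deposited detection values are a fraction that is a p per the file headers, but they rise with the signal and were read as 1 minus the detection p. The log2 values of the series matrix lay within 0.023 of the quantile-normalised log2 signals on every array. They were therefore read as quantile normalised, and served as an alternative. BeadStudio and Partek are named per the submitters' processing notes.

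Background was corrected by normexp with the background taken from detection p over the 13920 of 18097 rows whose detection values are whole steps of 1 negative control, with an offset of 16, quantile normalisation and log2. The whole-step restriction was chosen after the file was examined. The 2 arrays of a mouse were averaged. limma 3.58.1 (lmFit and eBayes, two-sided, R 4.3.3, statmod 1.5.0) compared 2 mice with 2 over 6982 rows with a detection p under 0.01 on at least 4 of 8 arrays, with Benjamini-Hochberg adjustment and a threshold of 0.05. Log2 differences are on the scale with the added offset, which understates dim rows. An "at least" fold sets the brighter genotype's mean against, per array, whichever is greater, its value there or the lowest detected value among whole-step rows. The number of mice, 2 of each genotype, limits the precision. The steps were tested on simulated data.

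Rows were named through the platform annotation (16610 with 1 symbol, 1487 with none), with gene order and upstream sequences from RefSeq tables of GRCm38.p6. The sequence table held 22 of the 38 Hox genes. Named are Dnmt1, every Hox gene, with all signals for tested rows where both mice of a genotype lie beyond both of the other or where the control level is among the 6 highest, from each pathway list the 2 largest differences, and 2 neighbours on each side of a cluster. Hoxd1, Hoxd3, Hoxd9, Hoxd10, Hoxb2, Hoxc6, Hoxa4, Pdx1, Dcn and the marker genes were picked for printing after their values were seen. The members and lists were chosen with earlier results of these data known.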

Additional observations from a re-analysis of the deposited data

Results flagged for a closer look

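Among 28 groups of 4 arrays, 1 array stood apart: the first array of control 1 for Dnmt1. Its normalised log2 level was 9.63 while the other 3 control arrays lay between 9.14 and 9.22. Its gap to the nearest array was 0.830 of the group's range, just past Dixon's 95% critical value for 4 arrays. Chance alone flags about 1 in 20 such groups, and no Hox row was picked out in this way.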

How the results depend on the processing

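The count of Hox rows past an adjusted p of 0.05 was 0 with averaged mice and in each other setting run except those named here. It was 2 (Hoxd4 and Hoxd8, of 185 rows in all) with the 8 arrays fitted and the mouse as a random effect. With the array number as a replicate block in that fit it was again 2, of 137 rows. Both fits of 8 arrays used 1 correlation between the arrays of a mouse, shared by all rows. For rows with wider spread between mice, arrays of the same mouse then count partly as replicates. The calls and the adjusted p of Dnmt1 from these fits can therefore overstate the evidence. Leaving out 1 mouse gave 0 to 5 Hox rows: 0 without either control, 2 without transgenic 1, and 5 without transgenic 2 (Hoxb5, Hoxb6, Hoxb7, Hoxd4 and Hoxd8, of 851 rows). A left-out mouse leaves its genotype with 1 mouse, assumed to vary like the other genotype.

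The median difference over Hox rows was -0.0922 with the background from all rows, where Hoxd4 was at -0.21 and Hoxd8 itself was that median. It was -0.40 from the series matrix, -0.45 with an offset of 50, -0.52 with median scaling, -0.0840 without a filter, -0.48 with detection on all 8 arrays, -0.47 and -0.48 with the first or the other array alone, and -0.57 over whole-step rows, a setting added after seeing the data. Leaving out 1 mouse gave -0.50 to -0.35. The background from all rows had an SD of 389 to 682 per array, beside 13.7 to 24.2 in the main setting.

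Dnmt1 was at -2.20 with the 8 arrays and the mouse as a random effect (limma adjusted p 0.00546) and with the replicate block (0.0142), and at -2.54 to -1.86 with 1 mouse left out (limma adjusted p 0.0111 to 0.729). It was at -0.64 (0.618) with the background from all rows. Directions that turned were Hoxa2 at -0.0933 with the other array alone and -0.14 to 0.23 with 1 mouse left out, Hoxa7 at -0.13 with median scaling and with the other array alone and -0.19 to 0.23 with 1 mouse left out, Hoxb9 at -0.44 to 0.00671 and Hoxd10 at -1.24 to 0.0496 with 1 mouse left out. The cause was not tested. The number of Hox genes detected in control was 10 to 13 across settings. Of 202 values of the 13 rows, 183 kept direction and side of the threshold, 11 moved past it and 8 turned. Hoxd4, Hoxd8 and Hoxb3 had no value where all 8 arrays had to be detected.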
